A study of Mus musculus with 8 samples.

Results

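The 78 mitochondrial ribosomal protein genes were all the genes, of 32285 in the deposited table of counts, whose symbol begins with Mrpl or Mrps followed by a number. They were measured by single-cell RNA sequencing in mouse bone marrow cells grown for 1 week on irradiated AFT024 cells, a fetal liver stromal line that serves as a feeder layer. Both groups received the same long-term culture medium with hydrocortisone, either alone (the media control) or with deoxycholic acid at 35 µM. Gut bacteria make deoxycholic acid from a primary bile acid, and the study's title links such secondary bile acids to myelopoiesis, the making of myeloid cells. Cells negative for lineage markers were sorted out of the cultures before capture, so the values describe cultured cells that passed this gate. For the mice, strain and age were not given in the sources used. The labels list 4 samples a group, lettered a to d, but the cell names carry only the group. Each group was therefore treated as 1 library, no difference below has a replicate check, and all intervals are exact 95% intervals that cover counting error only.

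Mitochondria carry their own ribosomes, which translate the few messenger RNAs encoded in mitochondrial DNA into core subunits of the respiratory chain. The ribosomal RNAs are made inside the mitochondrion, whereas every mitochondrial ribosomal protein is encoded in the nucleus, translated in the cytosol and imported. The Mrps genes mostly encode the small subunit, which binds and decodes the messenger, and the Mrpl genes the large subunit, which joins the amino acids. Some members descend from bacterial ribosomal proteins and others were added in mitochondria. Neutrophils, the main product of this lineage, are known for few mitochondria and for energy drawn largely from glycolysis. Of the members, 26 encode small and 51 encode large subunit proteins, Mrps30 and Mrps18a among the latter despite their names. Mrps36 belongs to neither subunit in current use and is known as a part of the 2-oxoglutarate dehydrogenase complex. It was kept because its symbol met the rule.

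Promoter stretches of 4 members are shown because they come from near the ends of the results below. Mrpl45 had one of the flattest and Mrpl12 one of the steepest courses through neutrophil maturation, and Mrpl27 had one of the lowest and Mrps5 one of the highest ratios between the libraries. Mrps28 and Mrpl19, whose ratios were the outermost, are not shown. Each is the 100 bases before the start of the gene, 5′ to 3′ on the gene's strand, from RefSeq on GRCm38.p6. Capitals mark a match to the core bound by NRF1, which is GCGCA, any base and then GCGC, or to CCGGAAG, a core bound by ETS factors such as GABPA, on either strand. Both factors are known regulators of nuclear genes for mitochondrial proteins.
Mrpl12 (chr11:120484537-120484636, plus strand): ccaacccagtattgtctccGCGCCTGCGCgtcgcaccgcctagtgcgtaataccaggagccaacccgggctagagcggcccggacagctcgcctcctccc
Mrpl45 (chr11:97315616-97315715, plus strand): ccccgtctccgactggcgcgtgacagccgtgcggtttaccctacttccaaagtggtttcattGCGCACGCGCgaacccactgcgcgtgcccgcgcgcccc
Mrpl27 (chr11:94653691-94653790, plus strand): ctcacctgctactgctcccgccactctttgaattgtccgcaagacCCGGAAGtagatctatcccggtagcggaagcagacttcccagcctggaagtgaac
Mrps5 (chr2:127587326-127587425, plus strand): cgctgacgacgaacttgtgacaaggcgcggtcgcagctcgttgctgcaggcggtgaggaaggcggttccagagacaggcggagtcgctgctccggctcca
The NRF1 core stands in the Mrpl12 and Mrpl45 stretches, the ETS core in that of Mrpl27, and neither in that of Mrps5. Promoters from 250 bases before to 50 after the start were listed for 69 members. On either strand the NRF1 core matched in 13 of the 69 (18.8%), against 13.7% of 6578 genes tested in the cells and 5.19% of all genes with a listed promoter. CCGGAAG matched in 26 of the 69 (37.7%), against 24.6% and 9.93%. The median log2 ratio of late over early cells, stages that are defined below, was −1.68 for the 13 members with the NRF1 core and −2.32 for the 56 without it, although Mrpl12, among the lowest, holds the core. For the ETS core these medians were −2.19 and −2.26. A match describes letters in the window and is not a measured binding site.

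The libraries held 9346 (media control) and 8520 (deoxycholic acid) barcodes, and 8495 and 7755 cells were kept after filtering, with median depths of 18831 and 14424 UMIs (unique molecular identifiers, each marking 1 captured messenger molecule). Levels are given as CPM, the UMIs of a gene per 1000000 UMIs after summing the cells of a library or stage. Because the assay captures the 3′ end of each molecule, a UMI counts a molecule irrespective of transcript length. Cells were placed on the neutrophil path by their own UMIs per 10000: late cells had at least 10 of Retnlg, middle cells fewer than that and at least 50 of Ngp, and early cells neither but at least 20 of Elane. Elane encodes neutrophil elastase of the primary granules, Ngp a protein of the secondary granules, and Retnlg a secreted protein of maturing neutrophils. These stages are ranges of 3 genes, not cell types: 4.87% to 5.25% of the cells not already late lay between 40 and 62.5 Ngp UMIs per 10000. There were 1652 early, 5257 middle and 566 late cells in the media control and 1490, 4915 and 470 with deoxycholic acid. Markers outside the staging rule are given for media control and deoxycholic acid in each pair. Prtn3 was at 6388 and 5629 CPM in early and 152 and 133 CPM in late cells. Mpo and Ctsg were also lower in late than in early cells. Mmp8 was at 13.5 and 13.8 CPM in early and 1750 and 1669 CPM in late cells, and Cxcr2 and Il1b also rose. The middle neutrophil markers Ltf, Lcn2 and Camp did not single out the middle cells. Ltf was at 16.4 and 13.6 CPM in early, 1278 and 1521 CPM in middle and 4331 and 4977 CPM in late cells. Lcn2 rose likewise, whereas Camp was at 13958 and 10688 CPM in middle and 13067 and 10694 CPM in late cells. The 1020 and 880 unstaged cells carried summed basophil markers at 1099 and 869 CPM. Their summed monocyte markers were at 490 and 567 CPM and stem cell markers at 120 and 89.8 CPM. Most of the monocyte sum was F13a1, at 360 and 483 CPM, which late cells held at 308 and 295 CPM. Ccr2 and Ms4a6c were lower with deoxycholic acid, and Csf1r was at 2.92 and 3.45 CPM. The early neutrophil markers Prtn3 (2794 and 2522 CPM) and Ctsg (2740 and 1914 CPM) stood above all these sums. The unstaged cells thus carried markers of several lineages, and cell types within them were not separated.

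Every member was detected in both libraries and all 78 reached at least 5 CPM in 1 of them. The mean of the libraries ran from 5.68 CPM for Mrps2 to 350 CPM for Mrpl33, with a median of 61.1 CPM. Mrpl33, the counterpart of bacterial L33 and one of the smallest large subunit proteins, led at 379 CPM in the media control and 322 CPM with deoxycholic acid. Mrpl18 followed at 322 and 274 CPM, then Mrpl57 at 281 and 274 CPM and Mrpl20 at 298 and 256 CPM. The neighbours Mrpl57 and Mrpl20 took opposite order in the libraries, so which of them ranks higher depends on the library. The small subunit was led by Mrps18c (248 and 238 CPM), Mrps14 (240 and 192 CPM), Mrps33 (209 and 199 CPM), Mrps21 (193 and 193 CPM) and Mrps24 (193 and 175 CPM). Mrpl51, at 225 and 210 CPM, completed the 10 highest members, which together held 35.3% and 35.4% of the family's UMIs.

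The family was highest in early cells and fell at each later stage in both libraries. Summed over the members, the media control held 10678 CPM in early, 5643 CPM in middle and 2623 CPM in late cells. With deoxycholic acid the same sums were 9976, 5032 and 2359 CPM. The log2 ratio of late over early cells was −2.03 (−2.05 to −2.00) in control medium and −2.08 (−2.11 to −2.05) with deoxycholic acid, and that of middle over early cells was −0.92 and −0.99. A split of the middle cells placed those that still had at least 20 Elane UMIs per 10000 at 7663 and 7098 CPM, between early cells and the remaining middle cells at 4429 and 4133 CPM. The course was also seen cell by cell. The median cell held 106 and 99.3 family UMIs per 10000 in early cells, 46.0 and 41.9 in middle cells, and 22.7 and 21.2 in late cells. The lowest 10% of early cells were below 83.3 and 77.6, whereas the highest 10% of late cells were above 36.3 and 33.8. Late cells were also shallower, with median depths of 6468 and 5697 UMIs against 24598 and 18023 in early cells. Each cell with at least 5000 UMIs was also thinned to 5000, which left out 170 and 179 late and 33 and 13 early cells. The mean of the libraries for late over early was then −2.11, against −2.05 unthinned. Thinning weights cells alike without changing the expected CPM of a cell, so this does not test depth.

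**Figure D1:**
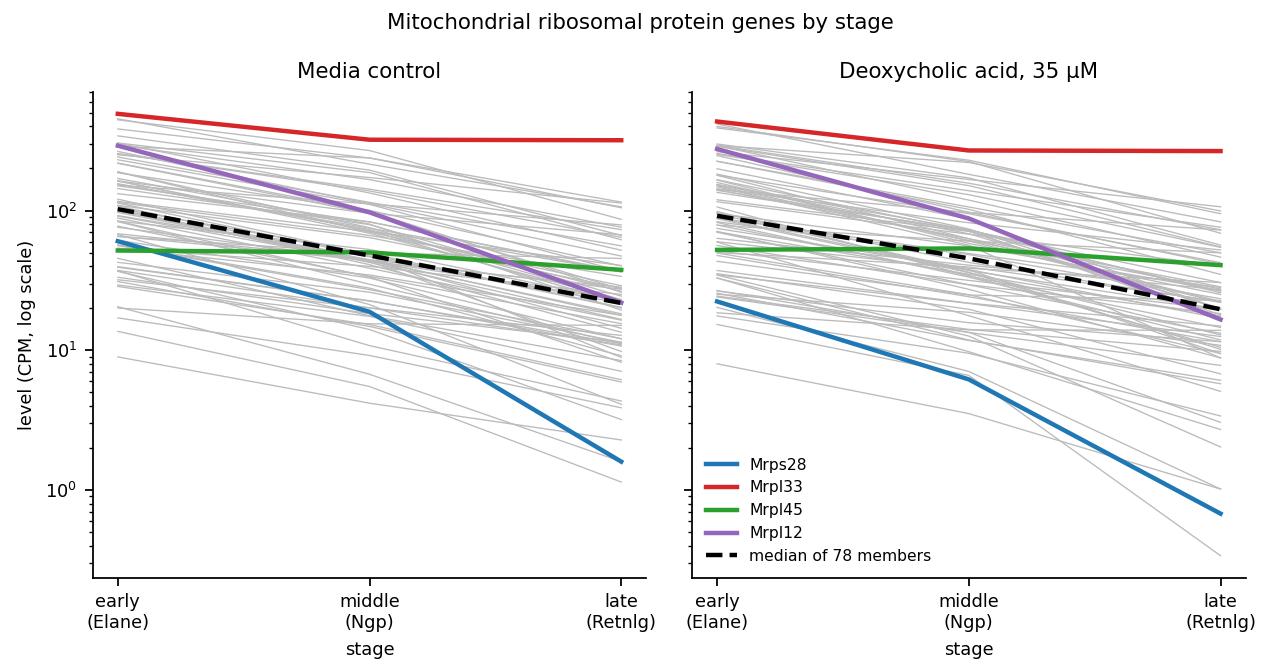
Level of each of the 78 members in early, middle and late cells (CPM, log scale), with the media control on the left and deoxycholic acid on the right. Grey lines are single members and the dashed line is their median; Mrpl33 and Mrpl45 run flatter than Mrpl12 and Mrps28, the last of which rests on 7 and 2 UMIs in late cells.

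All 78 members were lower in late than in early cells in both libraries, where 52.7% of 8982 genes tested were, and 77 stood in the order early, middle, late in both. The exception was Mrpl45, at 52.3 CPM in early and 53.6 CPM in middle cells with deoxycholic acid. The count of 77 has no share of all genes beside it. At a log2 ratio of −1 or lower, as the mean of both libraries, were 73 members, where 33% of the genes tested were; 0 members were at 1 or higher, where 23% were. The family's median was −2.25 and that of all genes tested −0.25. Part of the ratio depends on what the other genes do, because the 50 highest genes took 26.4% of UMIs in early and 49.0% in late cells of the media control. With those genes left out of the totals every ratio rose by 0.53 (media control) and 0.49 (deoxycholic acid). On these totals 75 members remained lower in both libraries, where 40.7% of the genes tested were. Mrpl10 then stood at 0.11 and 0.08, Mrpl45 at 0.07 and 0.13 and Mrpl48 at 0.01 and −0.16. The distance of the family's median from that of all genes, −2.00, cannot change with the scaling, which shifts every gene alike.

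Members kept their messengers to different degrees. Mrpl45, a large subunit protein at the exit of the peptide tunnel that holds the ribosome to the inner membrane, was at 51.8 and 52.3 CPM in early and 37.6 and 40.7 CPM in late cells. Its late over early log2 ratios were −0.46 and −0.36. Mrpl10, at the base of the stalk that recruits translation factors, had −0.41 and −0.42, and Mrpl48 had −0.52 and −0.66. Mrpl14 followed at −0.95 and −0.97. Mrpl33 fell from 492 and 433 CPM in early to 318 and 266 CPM in late cells (−0.63 and −0.70), with 321 and 269 CPM already in middle cells. Its share of all family UMIs thereby grew from 4.61% and 4.34% in early to 12.1% and 11.3% in late cells. These 5 were the members above −1, and all of them encode large subunit proteins.

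At the other end, Mrpl12, the protein of the stalk itself, fell from 291 and 276 CPM in early cells to 21.9 and 16.6 CPM in late cells. Its log2 ratios of −3.73 (−4.04 to −3.44) and −4.05 (−4.49 to −3.65) rest on 96 and 49 UMIs in late cells. Mrps5, counterpart of bacterial S5 at the entry of the messenger, fell from 113 and 148 CPM to 8.90 and 8.81 CPM (−3.67 and −4.07). Mrpl12 and Mrpl10, in the stalk and at its base, were thus at opposite ends of the family. Mrps6, Mrps27 and Mrps28 gave ratios at least as low as −3.58 in each library, from no more than 7 UMIs in the late cells of either. For Mrps27 the interval with deoxycholic acid, from 1 UMI, ran from −10.80 to −3.01, so its place among the lowest is loose. In all, 11 members had under 20 UMIs in the late cells of a library.

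Both subunits fell, the small subunit by slightly more. Small subunit members summed to log2 ratios of late over early of −2.13 and −2.20, and large subunit members to −1.97 and −2.01. As means of both libraries, single members had medians of −2.43 (small) and −2.10 (large). At −1 or lower were 26 of 26 small and 46 of 51 large subunit members, where 33% of all genes tested were. The small subunit's share of family UMIs was 31.9% and 32.4% in early cells and 29.7% and 29.9% in late cells. By origin, the 16 bacterial-type and 10 mitochondria-specific small subunit members had median ratios of −2.36 and −2.76, and the 30 bacterial-type and 21 mitochondria-specific large subunit members −2.31 and −2.04. The 5 mitoribosomal proteins with other symbols (Aurkaip1, Chchd1, Dap3, Gadd45gip1 and Ptcd3) were lower in late cells as well, with a median of −1.83. Their ratios ran from −0.77 and −0.90 for Aurkaip1 to −4.08 and −4.32 for Gadd45gip1.

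Related gene sets fell less or to a similar degree. The cytosolic ribosomal protein and respiratory chain sets were taken by how the symbol begins. They can therefore also hold genes that encode no such subunit, such as ribosomal protein kinases and assembly factors. Cytosolic ribosomal proteins summed to −1.84 (media control) and −1.76 (deoxycholic acid), nuclear-encoded respiratory chain subunits to −1.53 and −1.64, and the 13 mitochondrially encoded genes to −0.56 and −0.68. The distance between the family and the mitochondrially encoded genes was thus more than 1 log2 unit in each library. Cells with over 10% of UMIs from mitochondrial genes had been removed, which bounds that last sum from above. Medians over single genes ran in the same order, with −2.25 for the family and −0.85 for the mitochondrially encoded genes. Between them lay −1.74 for 93 genes tested in the cytosolic ribosomal protein set and −1.65 for 88 in the respiratory chain set. Of the machinery around the ribosome, 12 of 12 mitochondrial translation factors tested were lower in late cells, with 9 at −1 or lower, where 33% of all genes tested were. Of 15 genes for assembly of the mitochondrial ribosome and modification of its RNA, 13 were lower and 6 at −1 or lower, with a median of −0.97, so that the share at −1 or lower was near that of all genes.

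**Figure D2:**
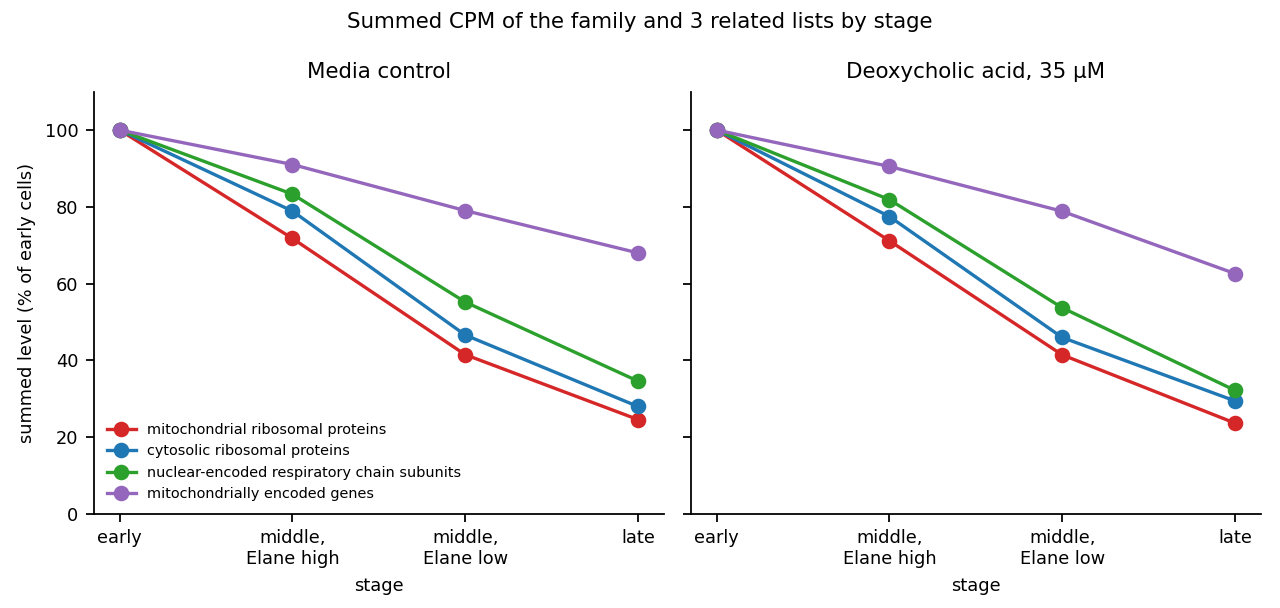
Summed level of the family and of 3 related gene sets, as a percentage of their level in early cells (vertical axis), in early cells, middle cells with at least 20 and under 20 Elane UMIs per 10000, and late cells, for the media control and deoxycholic acid. The family lies lowest at every stage after the early one, and the mitochondrially encoded genes stay highest.

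Between the libraries, most members were slightly lower with deoxycholic acid. The family's sum was 7331 CPM (7318 to 7344) in the media control and 6595 CPM (6580 to 6610) with deoxycholic acid, a log2 ratio of −0.15 (−0.16 to −0.15). Of the members, 70 were lower and 8 higher, where 40.7% of 8203 genes tested were lower, and the counting interval lay below 0 for 68, where it did for 29.3% of the genes tested, and above 0 for 6, where it did for 45.8%. The median ratio was −0.19 for the family and 0.05 for all genes tested. Past a log2 ratio of 0.5 there were 3 members lower, where 2.91% of the genes tested were, and 0 higher, where 1.62% were. The 3 were Mrps28, Mrpl27 and Mrpl50, but with cells thinned to 5000 UMIs Mrpl50 was at −0.49 and only 2 members were past 0.5. At a lower bound of 0.25, 18 members were lower, where 11.1% of the genes tested were, and 3 higher, where 15.4% were. The ratios of the family and of all genes are fractions of the same totals, and the deoxycholic acid library was the shallower. With cells thinned to 5000 UMIs the family's sum gave −0.12, beside −0.13 as an unthinned mean over cells. Thinning does not change the expected CPM of a cell, so it does not test depth.

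**Figure D3:**
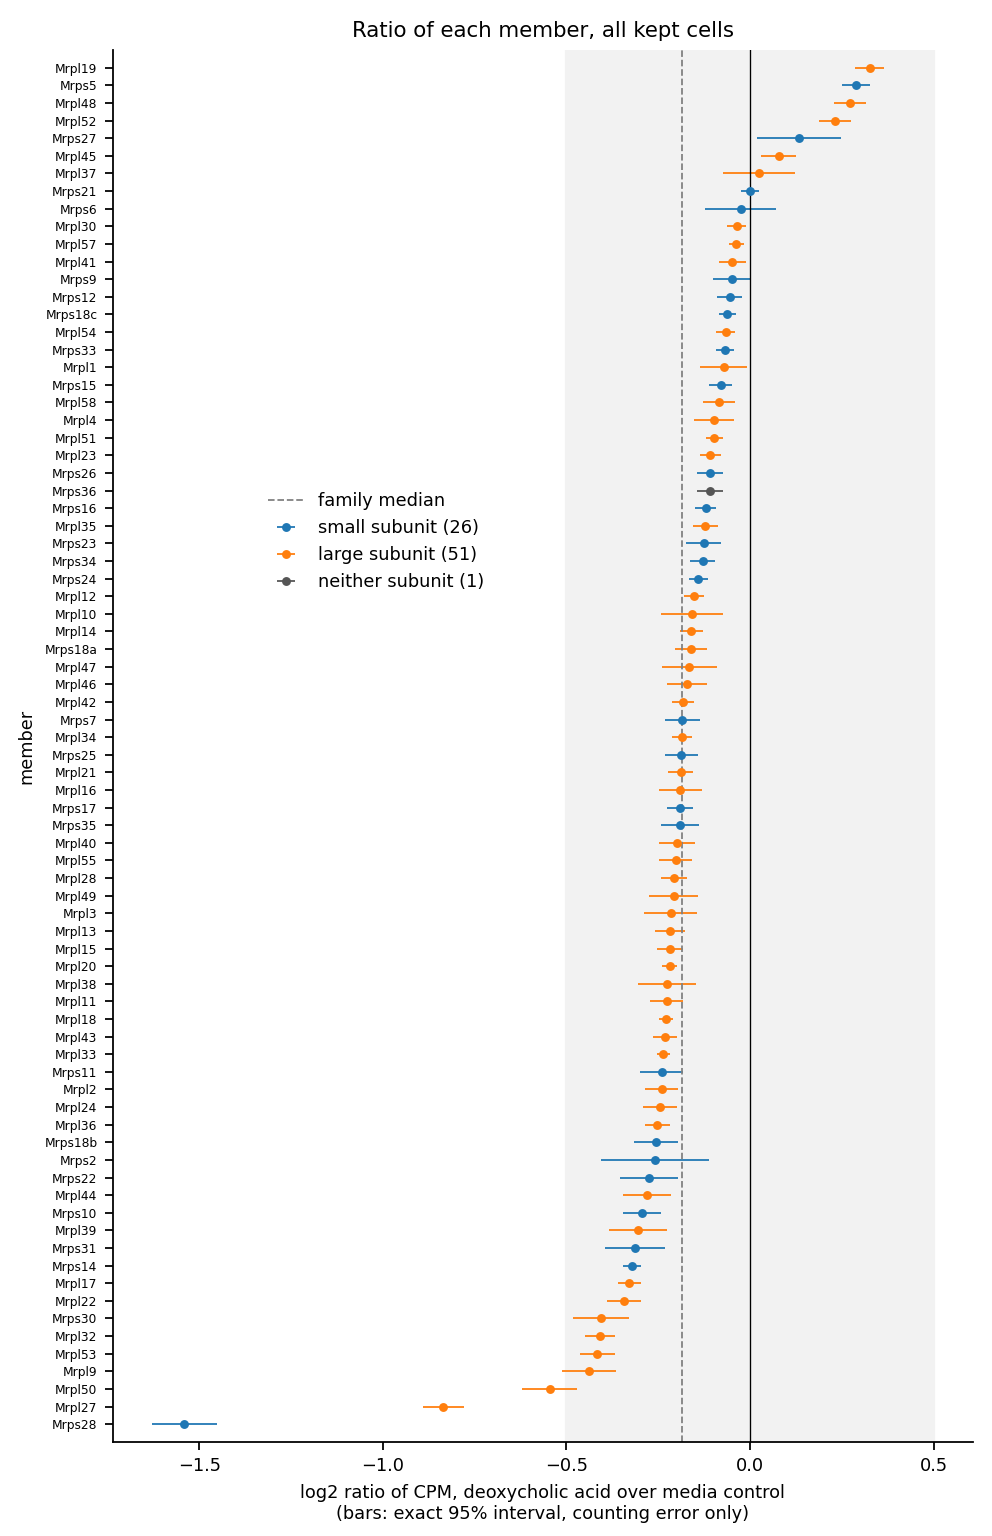
Log2 ratio of CPM, deoxycholic acid over media control, for each of the 78 members in all kept cells, ordered by ratio and coloured by subunit; bars are exact 95% intervals for counting error, the dashed line is the family's median and the shaded band runs from −0.5 to 0.5. Of the 78, 70 lie below 0 and Mrps28 lies farthest out, at −1.54.

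The direction held within the stages. The family's log2 ratio was −0.10 in early, −0.17 in middle, −0.15 (−0.20 to −0.11) in late and −0.14 in unstaged cells. The middle cells differed in their makeup, since 1594 of 5257 in the media control and 1218 of 4915 with deoxycholic acid still had at least 20 Elane UMIs per 10000. Within these cells the ratio was −0.11, and within the remaining middle cells −0.10, against −0.17 for both together. Lower were 67 of 78 members tested in early and 69 of 77 in middle cells. In unstaged cells 69 of 78 were lower, and in late cells 50 of 71. Of all genes tested, 50.1% were lower and 49.9% higher in early, 35.9% and 64.1% in middle, 47.5% and 52.5% in unstaged, and 45.4% and 54.6% in late cells. In all 4 stages 49 members were lower and 4 higher, Mrpl19, Mrpl45, Mrpl48 and Mrpl52. These joint counts have no share of all genes beside them. Small subunit members had a median of −0.13, with 23 of 26 lower, and large subunit members a median of −0.20, with 46 of 51 lower. The 30 bacterial-type large subunit members were lower in 29 cases, all but Mrpl19.

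Mrps28 stood apart from the rest of the family, which was known when it was chosen for description, so its distance carries no test. It encodes a small subunit protein, named bS1m as the counterpart of bacterial S1, on the side where the messenger leaves the ribosome. The media control held 5402 Mrps28 UMIs, 32.5 CPM, and the deoxycholic acid library 1314 UMIs, 11.2 CPM. Its log2 ratio was −1.54 (−1.63 to −1.45). The next lowest member, Mrpl27, was at −0.83 (−0.89 to −0.78), which leaves a distance of −0.71, and the other 77 members had a median of −0.18 with quartiles of −0.24 and −0.08. Among the 8203 genes tested, Mrps28 had the 3rd lowest ratio, and 30 genes lay at −1 or lower.

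The difference was present at each stage with enough UMIs. In early cells Mrps28 was at 60.3 CPM in the media control and 22.4 CPM with deoxycholic acid, a log2 ratio of −1.43 (−1.56 to −1.31). In middle cells it was at 18.9 and 6.19 CPM (−1.61, −1.76 to −1.46), and in unstaged cells at 49.8 and 17.2 CPM (−1.53, −1.75 to −1.32). Mrps28 was the lowest member in each of these, at −0.62, −0.79 and −0.57 from Mrpl27. In late cells 7 and 2 UMIs were counted and the interval ran from −4.54 to 1.16, so a difference was not detectable at this depth. Thinning to 5000 UMIs left out 662 media control and 647 deoxycholic acid cells that were shallower. In the thinned cells, an Mrps28 UMI was held by 11.8% of media control cells and 4.46% of those given deoxycholic acid. At full depth the shares of all kept cells were 34.7% and 13.7%, where the median depths were 18831 and 14424 UMIs. Early cells had the highest thinned shares, 26.5% and 10.8%, and late cells the lowest, 0.505% and 0.687%, from 2 cells in each library.

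**Figure D4:**
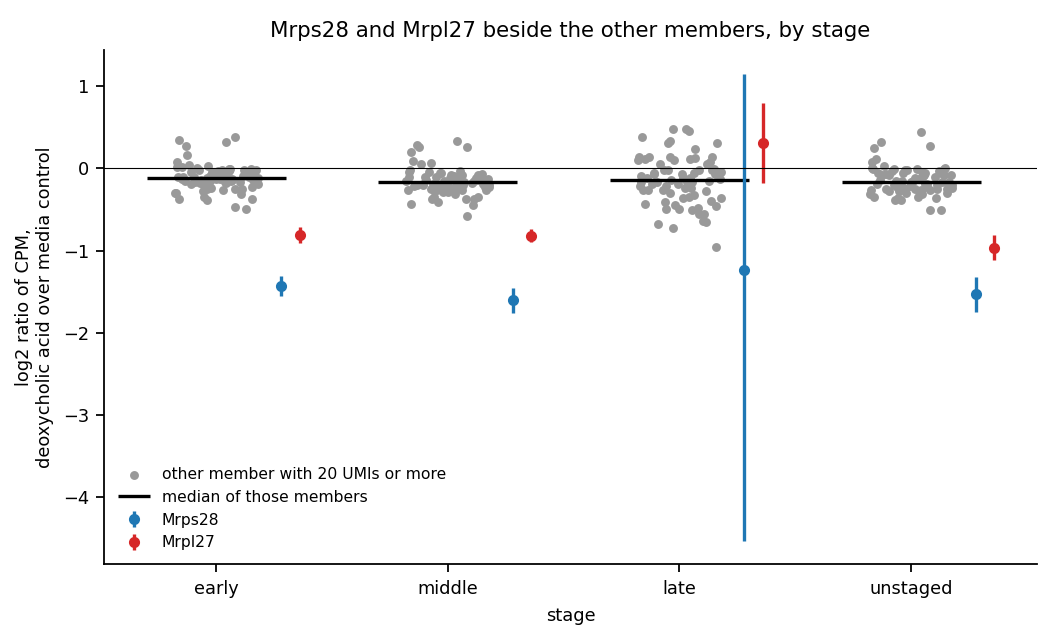
Log2 ratio of CPM, deoxycholic acid over media control, in early, middle, late and unstaged cells, for Mrps28 (blue), Mrpl27 (red) and the other members with at least 20 UMIs (grey, with their median as a bar); vertical lines are exact 95% counting intervals. Mrps28 lies below every grey point in early, middle and unstaged cells, and its late interval spans −4.54 to 1.16.

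The genes nearest to Mrps28 are given as a description, because likeness was measured on the ratios for which Mrps28 was chosen and its late ratio rests on 7 and 2 UMIs. By the distance of the log2 ratios in the 4 stages, over 4670 genes with at least 20 CPM and 50 UMIs, the nearest were Washc3, Med31, Unc50, Srsf9, Dynlt1f, Eloc, Churc1 and Hist1h2af. Washc3, a subunit of the endosomal WASH complex, had 26.0 and 9.95 CPM, a ratio of −1.39 (−1.48 to −1.29). Med31, of the Mediator complex, had −1.36, Srsf9, a splicing factor, −1.28, and Eloc, elongin C, −1.19. The nearest other member over the 4 stages, Mrpl50, came at rank 106. Mrpl27 lay nearer to Mrps28 in early, middle and unstaged cells, so the order of these members turned on the late ratios. Tpd52, the next gene on the same strand in the GENCODE vM21 annotation, was at 54.0 and 53.7 CPM (−0.01, −0.06 to 0.04). The gene beside Mrps28 thus differed by less than its counting error.

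Mrpl27, counterpart of bacterial L27 near the site of peptide bond formation, was at 54.7 CPM in the media control and 30.7 CPM with deoxycholic acid. Its ratio was −0.81 in early, −0.82 in middle and −0.97 in unstaged cells. In late cells it was at 18.2 and 22.7 CPM, from 80 and 67 UMIs, a ratio of 0.32 (−0.18 to 0.80). The late over early ratios of Mrpl27 were −2.06 (−2.39 to −1.74) in control medium and −0.93 (−1.31 to −0.58) with deoxycholic acid, which do not overlap within counting error. In the 396 and 291 late cells deep enough to be thinned, however, the shares with an Mrpl27 UMI were 8.84% and 5.84%. That was the opposite order to the CPM, so no order is read from the late cells.

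The other members at the low end were Mrpl50 at 27.3 and 18.7 CPM (−0.55, −0.62 to −0.47), Mrpl9 at 26.4 and 19.5 CPM (−0.44), Mrpl53 at 62.2 and 46.6 CPM (−0.42) and Mrpl32 at 81.1 and 61.1 CPM (−0.41). All 4 were lower in each of the 4 stages, as were 49 of the 78 members in total. They were named for their ratio over all kept cells, which sums these same stages. Among the most abundant members, Mrps14 had the lowest ratio, −0.32 (−0.35 to −0.30).

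The members that were higher with deoxycholic acid were few and their ratios smaller. Mrpl19, counterpart of bacterial L19, was at 69.3 and 86.8 CPM (0.33, 0.29 to 0.36) and was higher at every stage, from 0.32 in early to 0.45 in unstaged and late cells. Mrps5 was at 70.4 and 86.0 CPM (0.29, 0.25 to 0.33), with 0.39 in early, 0.26 in middle and −0.01 (−0.79 to 0.74) in late cells. Mrpl48 was at 55.6 and 67.1 CPM (0.27) and Mrpl52 at 55.7 and 65.4 CPM (0.23). Mrps27, at 8.54 and 9.36 CPM, had a ratio of 0.13 (0.02 to 0.25), which changed sign when cells were thinned or stages weighted alike. Mrps21 at 0.00 (−0.02 to 0.02) and Mrps6 at −0.02 (−0.12 to 0.07) did not differ beyond counting error.

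The family is made of short transcripts, and transcript length moved with the ratio across all genes. In GENCODE vM21 the members' median transcript had 1302 bases, against 3002 for the 8154 tested genes with an annotation. Over those genes the ratio and the length had a Spearman correlation of 0.41, given as a description since genes of the same libraries are not independent. Over the 78 members it was −0.00. Among genes of 1000 to 1500 bases, 79.7% were lower with deoxycholic acid, with a median of −0.16, beside −0.21 for the 22 members of that length. Among genes of 700 to 1000 bases the median was −0.17 and that of the 17 members −0.13. Among genes above 2500 bases, 26.3% were lower with a median of 0.11, whereas 18 of the 21 members were lower with a median of −0.17. The medians of members of 700 to 1500 bases lay near those of genes of their own length. At 700 to 1000 bases, however, all 17 members were lower, where 83.9% of all genes tested were. At 1000 to 1500 bases 21 of 22 members were lower, where 79.7% of all genes tested were. Below 700 bases the 8 members had a median of −0.17 beside −0.05 for all genes, and from 1500 to 2500 bases the 10 members had −0.23 beside −0.01. Mrps28 has 783 bases and Mrpl27 has 756. In their length class, 10.2% of the 391 genes tested were at −0.5 or lower. The part that length plays in the ratios was not tested.

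**Figure D5:**
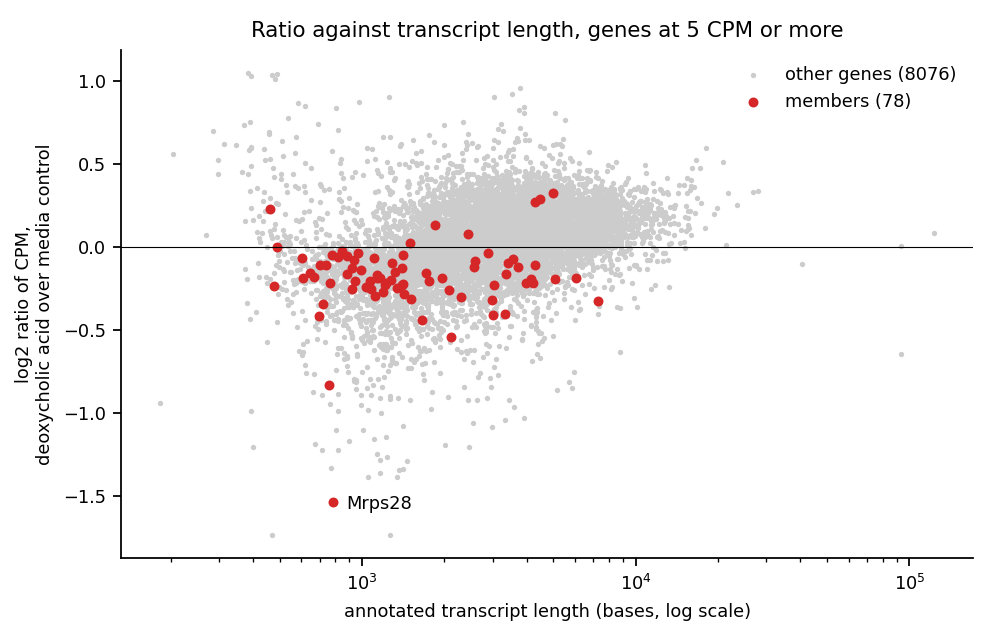
Log2 ratio of CPM, deoxycholic acid over media control, against annotated transcript length (bases, log scale), for the 78 members (red) and the other genes tested (grey). Short genes lie lower than long ones, with medians of −0.16 at 1000 to 1500 bases and 0.11 above 2500 bases, and Mrps28 lies near the lower edge.

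Other genes of the mitochondrial expression machinery are set beside the 40.7% lower and 59.3% higher among all genes tested with deoxycholic acid. Of 13 genes tested for assembly of the mitochondrial ribosome, 12 were lower, with a median of −0.18. Rbfa, which helps mature the small subunit's RNA, was at 64.5 and 55.7 CPM (−0.21), and Malsu1, which acts in large subunit assembly, at 47.9 and 42.8 CPM (−0.16). Of 12 mitochondrial translation factors, 5 were lower and 7 higher, near those shares, with a median of 0.06, and Tufm, the elongation factor Tu, was at 21.1 and 23.4 CPM (0.15). The mitoribosomal proteins with other symbols split 3 lower to 2 higher, with Chchd1 lowest (158 and 132 CPM, −0.26) and Ptcd3 highest (14.6 and 16.8 CPM, 0.21). Of 91 genes tested in the cytosolic ribosomal protein set, taken by symbol, 68 were lower with a median of −0.13, yet the set's sum differed by only −0.03. Of 87 genes in the respiratory chain set, also taken by symbol, 59 were lower with a median of −0.09. Of the 13 mitochondrially encoded genes, whose messengers the mitochondrial ribosome translates, 4 were lower and 9 higher, with a median of 0.03.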

How the data were processed

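The authors deposited UMI counts for each gene in each cell, not normalized. Libraries were made with the 10x Genomics 3′ kit, per the labels' protocols, and processed with Cell Ranger 6.0, per the submitters' processing notes. Genome build, annotation and any cell filter were not given in the sources used. Lithocholic acid, also in the culture design, was not analysed here. Members and gene lists were chosen with earlier results of these data known.

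Cells with at least 300 genes and at most 10% mitochondrial UMIs were kept. Scrublet (scanpy 1.11.5) marked 4 cells in each library with its automatic threshold, so the highest 6% of scores were removed (6.27% and 6.80% with ties). Only 25 barcodes occurred in both libraries. UMIs were summed and divided by totals. Ratios have exact binomial and sums exact Poisson intervals. Genes with at least 5 CPM in either library, or in either stage compared, were tested, meaning compared by fold; no p-value was computed. Alternatives used edgeR 4.0.16 factors, DESeq2-type factors, other filters, stages and thinning. Ratios were checked on simulated counts with 200 genes changed.

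Named were the 10 highest members, the 5 largest ratios each way for treatment and for stage, Mrps28, the 8 genes most like it and the 2 highest genes of each list. Mrpl32, Mrps2 and Gadd45gip1, Dap3, Chchd1 and Ptcd3 were named after their values were seen. Mrps24, Mrps6 and Mrps34 overlap another gene on the same strand (Urgcp, Gm16310 and Slc5a3, and Nme3), so reads there may be shared.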

Additional observations from a re-analysis of the deposited data

How the results depend on the processing

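No paired analysis was possible because the cell names carry no letters a to d; leaving out each letter was not run for the same reason. The family's ratio of deoxycholic acid over media control stayed below 0 under every alternative run. It was −0.12 without the 50 highest genes, −0.19 with DESeq2-type factors, −0.21 with edgeR factors, −0.13 as a mean over cells, −0.14 as a mean of the 4 stages and −0.12 thinned. At a log2 fold of 0.25, 18 members were lower, where 11.1% of genes tested were, and 3 higher, where 15.4% were. Mrps28 as a mean of the 4 stages was at −1.45, −0.88 from the next member. The late over early ratio (−2.05) and the middle over early ratio (−0.95) were −1.96 and −0.89 with stage thresholds at 0.5 times, −1.92 and −1.08 by the highest of the 3 stage genes, −1.96 and −0.91 with all barcodes or without doublet removal, −1.54 and −0.61 without the 50 highest genes, −1.61 and −0.85 with DESeq2-type factors, −1.97 and −0.82 with edgeR factors, −2.13 and −1.09 as means over cells, and −2.11 and −1.06 thinned. With thresholds at double, middle over early was −1.04. Splitting the middle cells by Elane, chosen after seeing the data, gave −0.48 and −1.27. The causes of these shifts were not tested. For 24 other named members, 144 of 216 values stayed within their counting interval, and 3 members (Mrps6, Mrps21 and Mrps27) changed sign under an alternative. Depth limits the late cells, where 11 members had under 20 UMIs.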

Other observations

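Among the genes that serve the mitochondrial ribosome without being part of it, Lars2, the mitochondrial leucyl-tRNA synthetase, ran against the family in both comparisons. Its level rose from 46.2 CPM in early to 246 CPM in middle and 764 CPM in late cells of the media control, and from 56.0 to 433 and 1333 CPM with deoxycholic acid. Its late over early log2 ratios were 4.05 and 4.57, while 9 of the 11 mitochondrial aminoacyl-tRNA synthetases compared were lower in late cells, all 9 at −1 or lower, where 33% of all genes tested were. Between the libraries Lars2 was at 200 and 350 CPM (0.81, 0.78 to 0.83), and 8 of 10 synthetases had positive ratios, where 59.3% of all genes tested had, with a median of 0.20. The annotation and read assignment behind the deposited counts were not given in the sources used, so reads from sequence that Lars2 may share with other transcripts cannot be told apart from its own. Iars2, the isoleucyl enzyme, was at 32.4 and 37.1 CPM (0.19) and followed the family through the stages, at −1.61 and −1.08.

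Of 9 genes tested for mitochondrial transcription and messenger stability, 6 were higher and 3 lower with deoxycholic acid, with a median of 0.05, the same as that of all genes tested. The 2 of them with the highest CPM differed in direction. Slirp, which binds mitochondrial messengers, was at 138 and 162 CPM (0.23, 0.20 to 0.26). Ssbp1, the single-stranded DNA-binding protein of mitochondrial DNA, was at 94.1 and 66.3 CPM (−0.51, −0.54 to −0.47). Both were lower in late than in early cells, at −2.84 and −2.95 for Slirp and −1.85 and −1.73 for Ssbp1.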
